A study of Rattus norvegicus with 5 samples.

Results

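A group of 8 genes of fatty acid use was followed across 5 rat arrays: Cpt1a, Cpt2, Acadm, Acadl, Hadha, Ehhadh, Bdh1 and Fabp1. Their probes were found by symbol, current or older, in the platform's annotation, and they are 8 of the 12198 genes named on the array. They were read by 9 of 33849 discovery probes, because Acadl has 2. RNA was measured on single-colour CodeLink oligonucleotide arrays, 1 array per sample. The liver sample came from an untreated male rat of the strain labelled SD, aged 50 weeks. The 4 hepatocellular carcinoma lines came from male F344 rats, aged 31 weeks, given diethylnitrosamine and N-nitrosomorpholine, both liver carcinogens. The lines C5F and C6 are labelled low-metastatic, and N1 and L2 high-metastatic. The liver had no replicate and each line is 1 sample, so the spread in the tests came from the lines, at most 2 per class. Strain, age, treatment and tumour origin differ between liver and lines together and cannot be told apart. In RNA from a whole tissue, fewer cells of a type and less RNA per cell cannot be told apart either.

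Long-chain fatty acids are bound in the hepatocyte cytosol by Fabp1, activated to acyl-CoA, and carried into mitochondria by the carnitine shuttle, in which Cpt1a on the outer membrane and Cpt2 on the inner membrane catalyse the transfers. Acadl and Acadm, the long- and medium-chain acyl-CoA dehydrogenases, and Hadha, the alpha subunit of the trifunctional protein, then shorten the chain. Peroxisomes run a parallel pathway, in which Ehhadh is the bifunctional hydratase and dehydrogenase. The liver turns much of the resulting acetyl-CoA into ketone bodies, and Bdh1 interconverts acetoacetate and 3-hydroxybutyrate in mitochondria. Many of these genes are known targets of the nuclear receptor PPARA.

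The promoters of the 3 members that were near background in at least 3 lines, Fabp1, Ehhadh and Bdh1, are shown beside that of Cpt2, which lay less than 2-fold below liver in 3 lines, so that the genes can be compared as sequence. They are the 150 bases before the RefSeq gene start in build GRCr8, 5′ to 3′ on the gene's strand. They lie at chr4:104749190-104749339 (plus strand, Fabp1), chr11:92746259-92746408 (plus, Ehhadh), chr11:82842637-82842786 (minus, Bdh1) and chr5:127910819-127910968 (minus, Cpt2). Capitals mark matches, on either strand, to the letters searched: AGGTCA, its direct repeat AGGTCANAGGTCA with up to 1 mismatch (the form PPARA is known to bind), the letters of the TATA box (TATAAA), those of the box bound by nuclear factor Y (CCAAT) and those of the GC box bound by Sp factors (GGGCGG).
Fabp1: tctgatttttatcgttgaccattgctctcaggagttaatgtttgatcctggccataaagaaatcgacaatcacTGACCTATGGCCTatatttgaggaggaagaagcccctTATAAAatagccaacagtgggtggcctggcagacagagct
Ehhadh: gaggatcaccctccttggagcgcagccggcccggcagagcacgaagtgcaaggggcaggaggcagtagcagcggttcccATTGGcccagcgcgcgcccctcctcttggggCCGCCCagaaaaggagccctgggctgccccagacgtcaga
Bdh1: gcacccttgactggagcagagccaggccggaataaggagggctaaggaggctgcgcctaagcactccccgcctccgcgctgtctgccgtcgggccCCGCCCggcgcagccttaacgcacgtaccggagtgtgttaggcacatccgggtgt
Cpt2: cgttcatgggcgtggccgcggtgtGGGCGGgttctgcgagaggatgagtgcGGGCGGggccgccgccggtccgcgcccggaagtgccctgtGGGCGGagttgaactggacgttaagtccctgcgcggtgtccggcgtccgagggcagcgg
The capitals of Fabp1 are the direct repeat, read on the minus strand with 1 mismatch and overlapping an AGGTCA, and a TATAAA nearer the start. Ehhadh holds a CCAAT and a GGGCGG, both on the minus strand, Bdh1 a GGGCGG on the minus strand, and Cpt2 3 GGGCGG. In windows of 300 bases, from 250 before to 50 after the start, 0.439% of 33469 RefSeq promoters held the repeat at this tolerance, 16.2% held AGGTCA, 14.2% TATAAA, 37.5% CCAAT and 33.1% GGGCGG. The GC content of those windows was 44.3% for Fabp1, 60.7% for Ehhadh, 62.0% for Bdh1 and 66.7% for Cpt2, against a median of 51.7% over all promoters. Of the 8 members 7 were matched in the promoter table, Acadl not. A match of letters is a description and not a binding site.

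Every member was brighter in liver than in each line in which both spots were usable. Ehhadh, Bdh1 and Fabp1 were bright in liver and near background in the lines, with the exception of Fabp1 in N1, while the mitochondrial members were above background at every usable spot but that of Cpt2 in C6. Signals below are log2 of the quantile-normalised intensity, with a floor at 1.34, the log2 of the median signal of spots that the scanner software called near background. A log2 difference of 1 is a 2-fold difference. Levels of different probes are not comparable with each other, so only differences within a probe were read. All 9 probes passed the filter for dim probes. Of their 45 spots, 9 were called irregular in shape by the scanner software and left out, so 5 genes could be tested against liver and Cpt1a, Acadm and Hadha could not. Of the 5, 4 were lower in the lines at an adjusted p under 0.05 (limma, Benjamini-Hochberg over 11949 probes), where 9.38% of all probes tested were called lower and 9.01% higher. This count needs reading against the filter. Ehhadh, Bdh1 and Fabp1 passed it through liver alone, and of probes that did so 54.8% were called lower. Acadl and Cpt2 were above background in at least 2 lines, where 3.18% of probes were called lower, and of these Acadl was called.

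**Figure D1:**
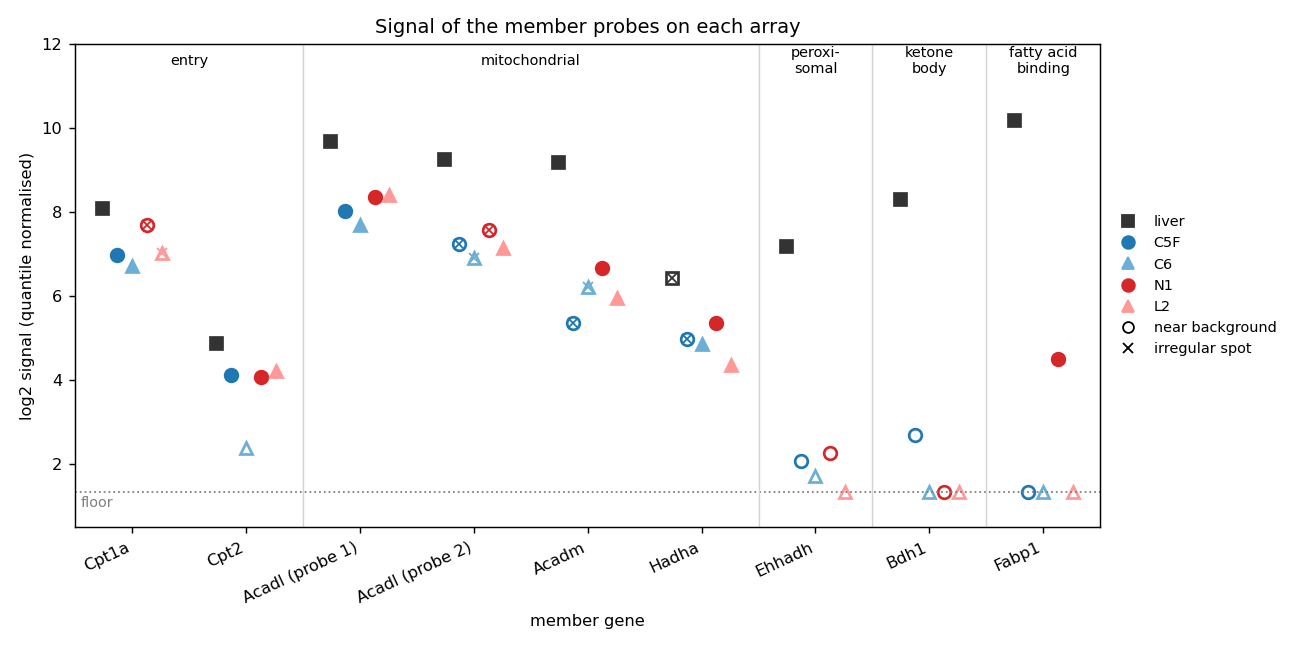
Log2 signal (y axis) of the member probes (x axis) in liver and the 4 lines, 1 point per array. Filled points are above background, open points are near background, crossed points are irregular spots left out of the main values, and the dotted line is the floor at 1.34. Ehhadh and Bdh1 lie near the floor in all 4 lines, whereas Acadl lies between 7.69 and 8.41 there and at 9.69 in liver.

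Entry into mitochondria was the step with the smallest differences. Cpt1a, the rate-controlling transferase, had a log2 signal of 8.10 in liver, 6.97 in C5F and 6.71 in C6, which is 2.20- and 2.63-fold below liver. Its spots in N1 and L2 were irregular. When irregular spots were kept, they read 7.69 and 7.04, so that liver lay above all 4 lines, by as little as 1.3-fold in N1. With them the difference was -0.94 ± 0.35 (SE; adjusted p = 0.147, limma), which did not pass.

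Cpt2 read 4.89 in liver, 4.12 in C5F, 4.07 in N1 and 4.22 in L2. In C6 it was near background, at 2.39. Liver was thus highest and C6 lowest, with the other 3 lines 1.60- to 1.77-fold below liver and C6 at least 2.53-fold below. The bound sets the liver signal against the lowest signal above background on the line's array, and the bounds that follow are built the same way. The lines' mean was 3.70 ± 0.88 (SD, n = 4) and the difference -1.19 ± 0.76 (SE; adjusted p = 0.327, limma). That is less than the 1.83 log2 units that the lines spanned with the C6 spot near background included. Without C6 the difference was -0.76 (adjusted p = 0.167) and without C5F -1.66 (0.0854).

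Of the mitochondrial dehydrogenases Acadl fell, and both remained above background wherever usable. Acadl read 9.69 in liver, 8.03 and 7.69 in the low-metastatic C5F and C6, and 8.35 and 8.41 in the high-metastatic N1 and L2. Every line lay below liver, by 2.43- to 4.02-fold, and the lines spanned 0.72 log2 units. The difference was -1.57 ± 0.24 (SE; adjusted p = 0.0363, limma), larger than the spread between lines. The call was lost without the filter on dim probes (adjusted p = 0.0577, limma) and when any 1 line was left out, with differences from -1.67 to -1.49. Such fits leave 1 line in a class, and without C5F or C6 calls were lost across the whole array. The second Acadl probe was usable only in liver (9.26) and L2 (7.15), a 4.32-fold difference. With its irregular spots kept it read 7.25, 6.90 and 7.58 in C5F, C6 and N1, again all below liver. With the 2 probes averaged, the difference was -1.51 ± 0.34 (SE; adjusted p = 0.0673, limma), and the call was lost.

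Acadm was usable in the high-metastatic lines only, and lay further below liver there than Acadl, a difference that was not tested. It read 9.19 in liver, 6.68 in N1 and 5.95 in L2, which is 5.70- and 9.5-fold below liver. The irregular spots of C5F and C6 read 5.36 and 6.21 when kept. With them the difference was -3.12 ± 0.47 (SE; adjusted p = 0.0344, limma), where 8.82% of 16833 probes were called lower. Without them, in a fit with all lines as 1 group, it was -2.88 ± 0.48 (adjusted p = 0.0643; 9.34% of probes called lower).

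Hadha had an irregular spot in liver and in C5F. It read 4.87 in C6, 5.36 in N1 and 4.36 in L2, so the usable lines lay within 1 log2 unit of each other. Kept, the liver spot read 6.43 and that of C5F 4.98, with the 4 lines 2.35- to 4-fold below liver. The difference was then -1.57 ± 0.38 (SE; adjusted p = 0.0718, limma). In a fit with all lines as 1 group and irregular spots kept, added after seeing the data, it was -1.57 ± 0.34 (adjusted p = 0.0398; 10% of 16835 probes called lower). Hadhb, which encodes the beta subunit of the same enzyme, read 7.30 in liver, 7 in C5F, 6.61 in C6 and 7.38 in L2, with N1 irregular. Its difference from liver was -0.21 ± 0.32 (SE; adjusted p = 0.675, limma). The difference between the subunits was not tested.

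The peroxisomal member was near background in all 4 lines. Ehhadh read 7.19 in liver, 2.08 and 1.73 in the low-metastatic C5F and C6, and 2.28 and 1.34, the floor, in N1 and L2. Liver lay apart from every line, by at least 11.2-fold (N1), 12.4-fold (C6), 13-fold (L2) and 18.5-fold (C5F). The difference on the floored scale was -5.33 ± 0.47 (SE; adjusted p = 0.0159, limma), at least 13.5-fold over the lines. The call was lost without C5F or C6, where calls were lost across the whole array, and kept without N1 or L2. With a line left out the difference ran from -5.55 to -5.09.

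Bdh1, of the ketone body step, had the same form. It read 8.32 in liver and 2.69 in C5F, and lay at the floor of 1.34 in C6, N1 and L2. All 4 lines were near background, so liver exceeded C5F by at least 40.5-fold, L2 by 28.5-fold, C6 by 27.1-fold and N1 by 24.4-fold. The difference was -6.64 ± 0.61 (SE; adjusted p = 0.0167, limma), at least 29.6-fold over the lines. Since C6, N1 and L2 lay at the floor, that SE is partly set by the floor. With any 1 line left out the call was lost, and the difference ran from -6.97 to -6.24. Without C5F or C6, calls were lost across the whole array.

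Fabp1, the fatty acid binding protein, was above background in 1 line. It read 10.19 in liver and lay at the floor in C5F, C6 and L2, but read 4.5 in N1, above background. The N1 spot was 51.3-fold below liver, and the bounds were 148-fold in C5F, 99.1-fold in C6 and 104-fold in L2. The difference was -8.05 ± 1.36 (SE; adjusted p = 0.0421, limma). The call was lost without the filter (adjusted p = 0.12, limma) and without C5F or C6, where calls were lost across the whole array. It was kept without N1 or L2, and with a line left out the difference ran from -8.83 to -7.36. Without N1 the remaining lines all lay at the floor, so no spread between them was measured.

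**Figure D2:**
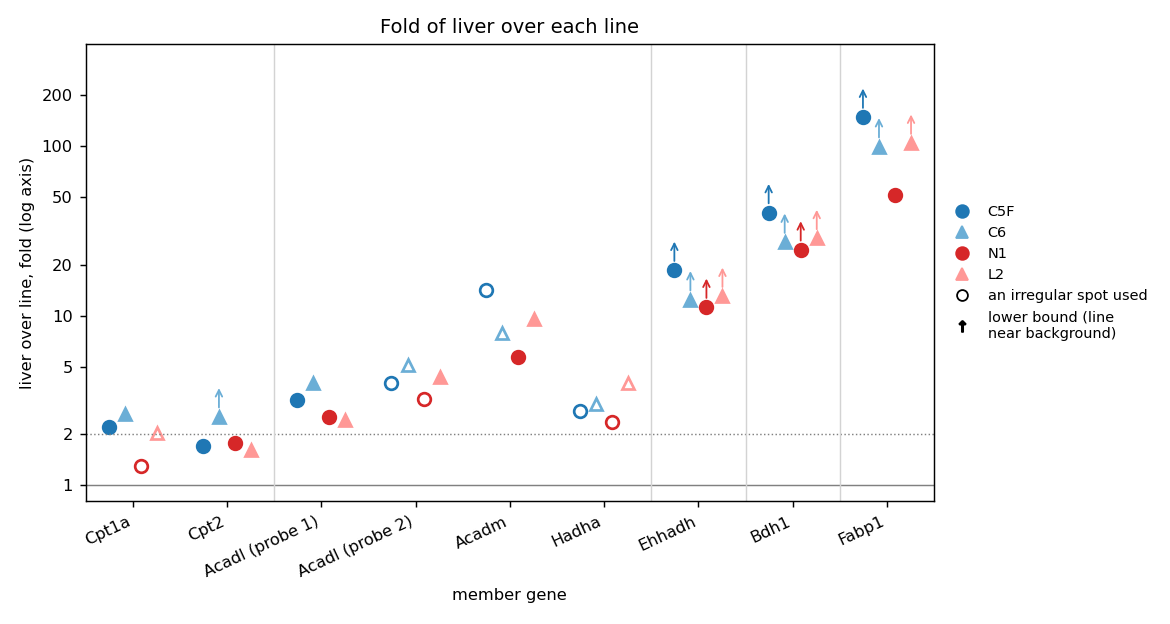
Fold by which liver exceeded each line (log axis) for every member, ordered by step, with a marker per line, open markers where an irregular spot was used, arrows on lower bounds and a dotted line at 2-fold. The members of mitochondrial entry and oxidation lie between 1.3- and 14.2-fold, and Ehhadh, Bdh1 and Fabp1 at bounds or values from 11.2-fold upward.

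Counted by line, with irregular spots left out, 6 of 6 usable members lay at least 2-fold below liver in C6, and 5 of 6 in each of the other lines. The member that did not in C5F, N1 and L2 was Cpt2. Of all probes above background in liver, 25.8% lay as far below it in C6, 31.4% in C5F, 27.9% in L2 and 23.2% in N1. Of the 5 members usable on all arrays, 4 were at least 2-fold below liver in all 4 lines (22.7% of 5524 probes were) and Ehhadh and Bdh1 were near background in all 4 (17% were).

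**Figure D3:**
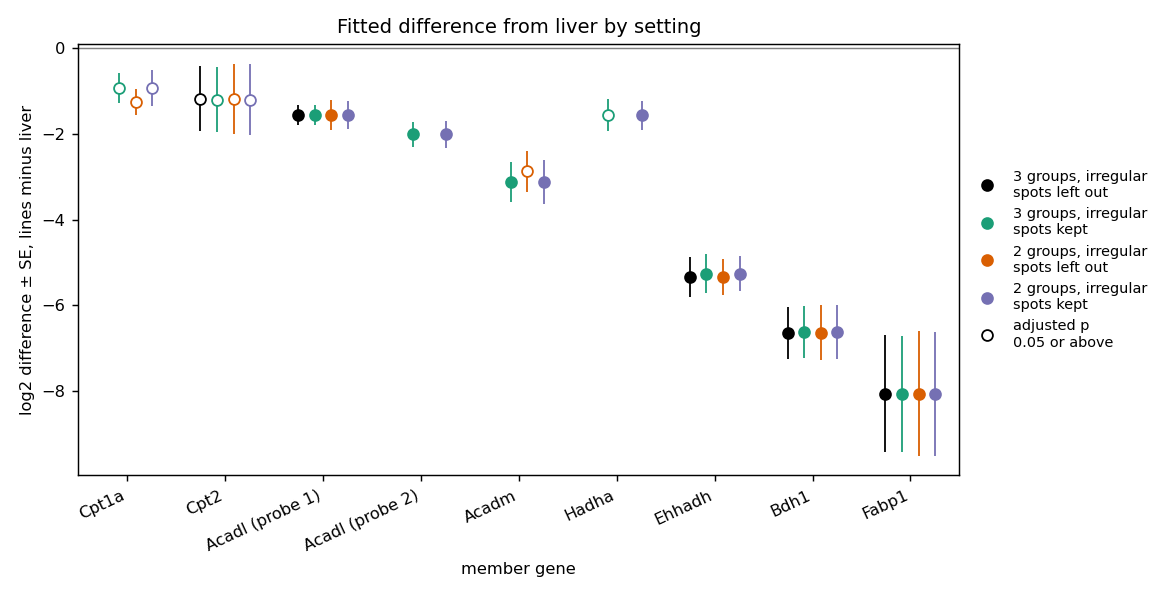
Log2 difference, lines minus liver, of each member probe (x axis) with its SE, in fits with 3 or 2 groups and with irregular spots left out or kept. Open points have an adjusted p of 0.05 or above, and every point lies below 0, from -0.94 for Cpt1a to -8.06 for Fabp1.

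Between the classes no member passed the test. Of the member probes, 6 could be tested for high- against low-metastatic lines and 0 were called (0 at an unadjusted p under 0.05), as were 0 of 13741 probes (0%; 7.31% had an unadjusted p under 0.05, limma). On its first probe, Acadl was higher in both high-metastatic lines than in both low-metastatic ones, by 0.52 ± 0.22 (SE; adjusted p = 0.707, limma). Such a separation was seen in 38.8% of 7982 probes. The second Acadl probe, with irregular spots kept, read 7.25 in C5F and 7.19 in L2, so its classes overlapped. With the 2 probes averaged, the class difference was 0.21 ± 0.31 (SE; adjusted p = 0.882, limma). Cpt2 differed by 0.89 ± 0.68 with classes that overlapped, by 0.02 without C6 and by 1.80 without C5F. Fabp1 differed by 1.58 ± 1.21, all of it from N1. Ehhadh differed by -0.09 ± 0.42, Bdh1 by -0.68 ± 0.54 and Hadha, with C6 as its only usable low-metastatic line, by -0.01 ± 0.61. The values for Ehhadh and Bdh1 compare spots that were near background in every line. That of Bdh1 came from C5F alone, the other lines being at the floor. With at most 2 lines in each class, a missed threshold does not show that the classes are alike.

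The rest of the pathway was read from lists of other genes. The list for steps inside mitochondria held acyl-CoA dehydrogenases, trifunctional and short-chain enzymes, electron transfer, and Pccb and Mcee of propionyl-CoA breakdown. Of its 13 tested genes 4 fell, 0 rose, and all 13 estimates were below 0, with a median of -1.97. All 13 were above background in at least 2 lines, where 3.18% of all probes were called lower and the median was 0.32. Those that fell were Acadsb, a short/branched-chain acyl-CoA dehydrogenase (-3.73 ± 0.39, adjusted p = 0.0391), Acaa2, the 3-ketoacyl-CoA thiolase (-2.31 ± 0.37, 0.0391), Eci1, the enoyl-CoA isomerase (-2.06 ± 0.39, 0.0493), and Mcee, the methylmalonyl-CoA epimerase (-1.97 ± 0.25, 0.049). Acaa2 read 10.89 in liver and 8.63, 7.92, 8.98 and 8.76 in C5F, C6, N1 and L2, all lines below liver. Etfa, a subunit of the flavoprotein that takes the electrons, read 4.99 in liver and from 4.20 in L2 to 5.26 in N1, so liver lay inside the range of the lines.

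The acyl-carnitine carrier and carnitine supply behaved unevenly. Of 5 tested genes, 2 fell: Bbox1, the last enzyme of carnitine synthesis, by at least 16.6-fold (adjusted p = 0.0159, limma), and Slc22a5, the carnitine transporter of the cell membrane, by at least 3.03-fold (0.0401). Both were near background in all lines and had passed the filter through liver alone, where 54.8% of probes were called lower (9.38% of all probes tested). Slc25a20, the carrier between Cpt1a and Cpt2, read 2.90 in liver, near background, and 4.14 in C5F and 4.52 in N1, above it. Its difference was 0.67 ± 1 (SE; adjusted p = 0.657, limma).

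Among other peroxisomal genes 1 of 10 tested fell, near the 9.38% of all probes tested, with 9 estimates below 0 and a median of -1.78. Of the 10, 8 were above background in at least 2 lines, and 1 of these 8 was called (3.18% of such probes were). The median of the 8 was -1.67, against 0.32 over all such probes. The gene called was Decr2, the peroxisomal dienoyl-CoA reductase. It read 8.05 in liver and 4.66, 4.81, 5.29 and 3.95 in C5F, C6, N1 and L2 (-3.37 ± 0.60, adjusted p = 0.0457, limma). Hsd17b4, the bifunctional enzyme of the other peroxisomal branch, read 9.94 in liver, 9.75 in N1, and 8.26, 7.99 and 8.37 in C5F, C6 and L2. Its signal in N1 was close to liver, and its difference was -1.34 ± 0.63 (adjusted p = 0.216, limma). Unlike Ehhadh, it was above background in every line. The difference between these genes was not tested.

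Ketone body synthesis was covered thinly. Acat1, the thiolase that makes acetoacetyl-CoA, read 8.38 in liver, 7.06 in C6, 7.71 in N1 and 7.32 in L2, with C5F irregular (-1.09 ± 0.32, adjusted p = 0.138, limma). Bdh2 was usable only in liver. On the side of ketone body use, Oxct1, the transferase with which other tissues burn acetoacetate and which the liver is known to lack, was near background in liver (2.75). It read 6.90 in C6, 5.95 in N1 and 4.78 in L2, and their mean lay at least 4.01-fold above liver. The difference of 3.38 ± 0.66 did not pass (adjusted p = 0.0826, limma) and passed with the irregular C5F spot kept (3.18 ± 0.55, 0.0417). Hadhb, Etfa, Slc25a20, Hsd17b4, Acat1, Oxct1 and Pparg, which were not called in the main analysis, and Acsl1 were chosen after their values were seen.

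**Figure D4:**
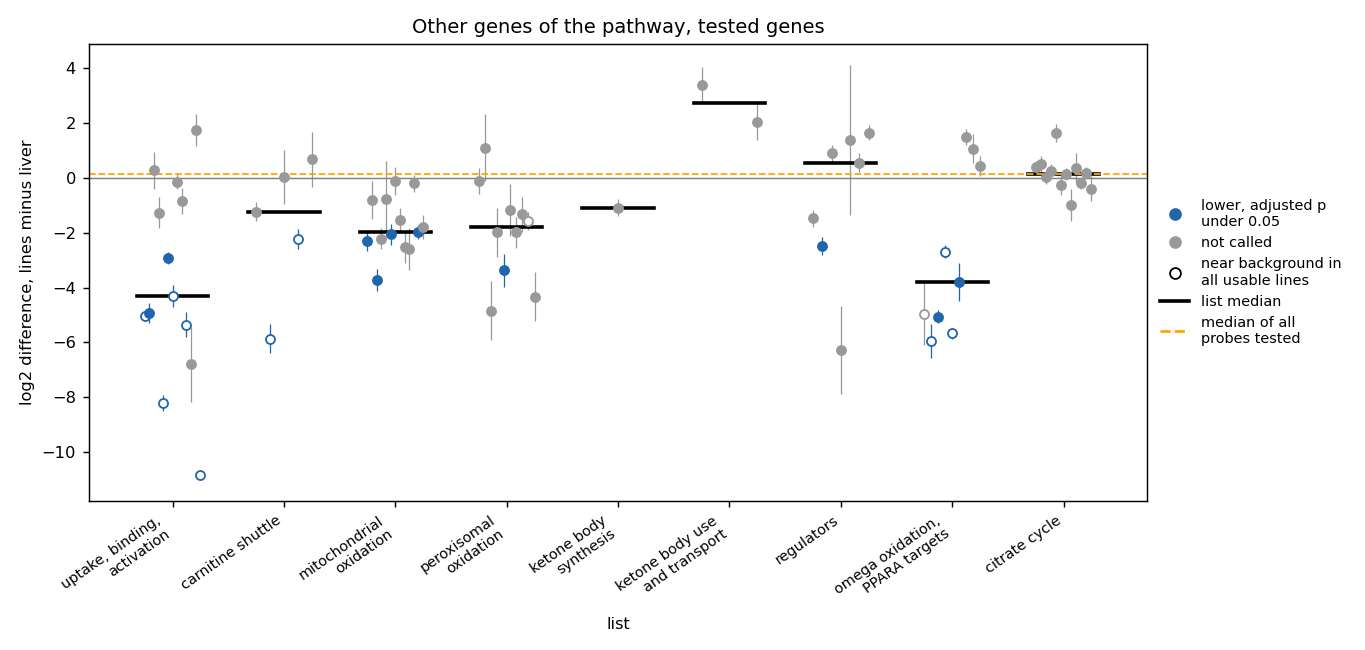
Log2 difference, lines minus liver, with its SE for every tested gene of the lists (x axis), 1 point per gene (open where all usable lines were near background, blue where called lower), the list median as a bar and the median over all probes tested (0.15) as a dashed line. The mitochondrial and peroxisomal lists have medians of -1.97 and -1.78, and the citrate cycle list lies at 0.15.

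For counts with the members included, the carnitine genes above were joined to the mitochondrial ones. Of these lists, 7 of 20 tested mitochondrial and carnitine genes, 2 of 11 peroxisomal genes and 1 of 2 ketogenic genes fell. The median differences were -1.69, -1.99 and -3.86 (9.38% of all probes fell). The 7 include Bbox1 and Slc22a5, of carnitine supply, which passed the filter through liver alone. Among genes above background in at least 2 lines, it was 5 of 18, 1 of 8 and 0 of 1 (3.18% of such probes), with differences of -1.56 and -1.67 at the median and -1.09 for Acat1, the single ketogenic gene. Taking genes near background in all lines at their bound, the medians were -1.58, -1.99 and -2.99. The mitochondrial and peroxisomal medians lay close together, although the fitted difference of Ehhadh was larger than that of any mitochondrial member, and the ketogenic median is that of Acat1 and Bdh1 alone. Differences between the steps were not tested. With irregular spots kept, the mitochondrial and carnitine count was 9 of 28 and the peroxisomal 5 of 17, where 8.82% of 16833 probes were called lower. The counts were 12 and 7 when all lines were also fitted as 1 group, where 10% of 16835 probes were called lower.

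Upstream of the carnitine shuttle, 7 of 13 tested genes of uptake, binding and activation fell, with a median of -4.31, or -2.93 with bounds. Of the 7, 5 had passed the filter through liver alone. Among the 7 tested genes above background in at least 2 lines, 2 fell (3.18% of such probes did) and the median was -0.86, against 0.32 over all such probes. Slc27a5, the bile acid and very-long-chain acyl-CoA ligase of the liver, read 12.17 in liver and lay at the floor in all lines, at least 426-fold lower. It was called (adjusted p = 0.00627, limma), but with all lines at the floor this p measures no spread between them. Acsm1, a medium-chain acyl-CoA synthetase, fell by at least 76.4-fold, Fabp7, a fatty acid binding protein, by at least 26.6-fold and Acot12, a cytosolic acetyl-CoA hydrolase, by at least 7.72-fold. Acsl1, the main long-chain acyl-CoA synthetase of liver, stayed above background, with 10.40 in liver and 5.88, 5.31 and 4.83 in C5F, N1 and L2 (-4.93 ± 0.35, adjusted p = 0.0253, limma).

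Of 9 tested genes of omega oxidation and other PPARA targets, 5 fell (9.38% of all probes tested did). Of these, 3 had passed the filter through liver alone, where 54.8% of probes were called lower. Among the 5 tested genes above background in at least 2 lines, 2 fell (3.18% of such probes did) and the median was 0.41, against 0.32 over all such probes. Cyp4a1 and Cyp4f4, fatty acid hydroxylases, were at least 36.2- and 12.3-fold lower and near background in all lines. Cyp4a3 and Cyp4f6 fell by 5.07 ± 0.24 and 3.80 ± 0.68 on the log2 scale (SE; adjusted p = 0.0163 and 0.0455, limma). Among 7 tested regulators, all above background in at least 2 lines, 1 fell (3.18% of such probes did). It was Lpin1, a phosphatidate phosphatase and coactivator (-2.49 ± 0.34, adjusted p = 0.0312, limma). Pparg, the receptor of adipocyte lipid storage, ranged from 3.60 in L2 to 9.40 in N1 with liver at 4.46.

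Citrate cycle enzymes, mitochondrial but outside fatty acid oxidation, were read for comparison. Of 12 tested genes 0 were called by limma (1 at an unadjusted p under 0.05). Their median difference was 0.15, that of all probes tested. All 12 were above background in at least 2 lines, and over all such probes the median was 0.32. The contrast with the oxidation genes was not tested.

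Among genes of the joined mitochondrial and carnitine list that were above background in all 4 lines, N1 was often the highest line. This held for 7 of 10 genes (70%), Acadl not among them, where it held for 31.6% of 5326 such probes. C6 was the lowest line for 5 (50%) and L2 for 4 (40%). Over all such probes, C6 was lowest for 20.4% and L2 for 35.7%. The comparison was chosen after the values were seen and has no test.

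The named genes whose differences from liver ran closest to Acadl over the 4 lines were Usp2, Mgat4b and Gzma, with mean absolute deviations of 0.138, 0.161 and 0.170 log2 units among 1912 candidates. For Cpt2 they were Gpt2 (0.373), St6galnac3 (0.376) and Armt1 (0.377), among 52 candidates. These are likenesses over 4 lines that share 1 liver array, and carry no test.

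Markers of cell types were summed over the genes with a probe usable on all 5 arrays, so that each sum covers the same genes. Of 9 hepatocyte markers, 9 were above background in liver (summed signal 40900), 7 in C5F (2340), and 2 in each of C6 (71.8), N1 (66.3) and L2 (65.3). Alb was near background in all 4 lines. Of 6 Kupffer cell and macrophage markers, 6 were above background in liver (4420) and 2 in each line (54.1 to 83.6). Of 6 sinusoidal endothelial markers, 5 were above background in liver (520) and at most 1 in the lines (6.2 to 23.2). A brighter Pecam1 probe, not usable in liver, was above background in all 4 lines, at 4.02 to 4.40. With its irregular liver spot kept, its difference from liver was -3.28 ± 0.21 (SE). Of 4 stellate cell and fibroblast markers, 1 was above background in liver (57.7) and 0 in the lines (3.46 to 18.8). A brighter Col1a1 probe, not usable in C6 and L2, read 7.56 in liver, 7.10 in C5F and 7.49 in N1. Col1a2, usable only in C5F and L2, read 7.07 and 7.12 there, above background. Reln read 8.09 in liver, 5.24 in C6 and 1.42, near background, in N1, and was not usable in C5F and L2. Of 4 adipocyte markers, 1 was above background in liver (226) and 0 to 2 in the lines (22.2 to 85.3). Of 3 cholangiocyte markers, 0 were above background in liver (13.1) and 1, Cldn4, in C6 (26.1), with the other lines between 5.34 and 16.8. Krt19, a further cholangiocyte marker, was above background in C5F, C6 and L2 and not usable in liver and N1. Epcam, another, was above background in liver (5.61) and C5F (6.21), near background in L2 (3.29), and not usable in C6 and N1. Of 4 markers of proliferating cells, 1 was above background in liver (124) and 3 to 4 in the lines (694 to 792). The part of these differences in the results was not tested.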

How the data were processed

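The deposited files hold spot intensity from CodeLink arrays, with background already subtracted by CodeLink Expression Analysis 4.1, per the file headers. The labels name total RNA and biotin-labelled cRNA as the target. The authors' normalized intensity, deposited as a table for the whole series, equals that of the scanner files (largest difference 0), and served as an alternative.

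Control spots (1280) were removed, and irregular, masked and contaminated spots set to missing. Intensities were quantile-normalised, given a floor of 2.53 (the median over spots that were called near background) and put on a log2 scale. Probes were kept (16377) if above background in at least 2 lines or in liver. Per array 30.6% to 39.2% of probes were above background and 6.72% to 8.7% irregular; the number of arrays limits the precision. A limma fit with 3 groups (empirical Bayes, two-sided, prior df 1.46) gave the mean of both line classes minus liver and high minus low. Benjamini-Hochberg adjustment ran over all probes tested, with a threshold of 0.05. The labels do not say whether samples came from separate cultures, so p-values measure only the spread between these samples. Where lines lay at the floor, the floor sets that spread, and the SE and p do not measure it. Liver, a single array, was assumed to vary like the lines.

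For genes with several probes the brightest stood for the gene. Probes with 1 gene in the platform annotation (16753; 165 had several, 16931 none) were named, with 16724 symbols updated by Entrez number. The text names the members, up to 4 called genes per list with the largest differences, genes that show whether a step was measured, and the 3 genes closest to a fully measured member. The members and lists were chosen with earlier results of these data known. Alternatives covered scaling, offset, irregular spots, filter, grouping, robust empirical Bayes, probe choice and each line left out. R 4.3.3, limma 3.58.1 and statmod 1.5.0 were used, and scripts were tested on simulated data.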

Additional observations from a re-analysis of the deposited data

How the results depend on the processing

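Every member tested stayed lower in the lines than in liver under each alternative that could test it. With the offset of 50 the differences were smaller, at -4.43 for Fabp1, -2.81 for Bdh1, -1.88 for Ehhadh and -0.31 for Cpt2. Acadl lost its call when its 2 probes were averaged, at -1.51 (adjusted p = 0.0673, limma). Of the 4 members called lower in the main analysis, 2 were called without the filter, 1 with a filter of 3 arrays (which drops Ehhadh, Bdh1 and Fabp1) and 0 to 2 with 1 line left out. Genes of the joined mitochondrial and carnitine list called lower (7) came to 3 with median scaling and 1 without the filter. They came to 12 with irregular spots kept and all lines as 1 group (added after seeing the data). Their calls were lost with any line left out, where the list's median ran from -1.92 to -1.29. Peroxisomal genes (2) came to 4 with an offset of 50, 5 with irregular spots kept, 1 without the filter, 4 with all lines as 1 group, 7 with both changes, and 0 to 2 with a line left out. Their median (-1.99) was -1.23 with the offset and -3.09 to -1.83 with a line left out. Ketogenic genes (1) came to 0 with the filter of 3 arrays and 0 with any line left out. Their median (-3.86) was -1.85 with the offset, -1 with irregular spots kept in either grouping, -1.09 without the filter or with that of 3 arrays, and -6.67 to -4.03 with a line left out.

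Over all probes, 1121 were lower and 1077 higher. Lower calls were 1725 without the filter, 435 with the filter of 3 arrays, 1685 with both changes, and 0 to 485 with a line left out (0 without C5F or C6, where limma gave 1547 and 1534 at an unadjusted p under 0.05). Higher calls were 605 with the offset, 1850 with irregular spots kept, 623 without the filter, 2240 with both changes, and 0 to 132 with a line left out. Of all calls 51% were lower, against 68.6% with the offset, 73.5% without the filter and 26.9% with the filter of 3 arrays. The median over all probes was 0.15, and 0.29 with median scaling. Between the classes, the sign of Hadha (-0.01) turned to 0.06 with median scaling and 0.02 with the offset. With a line left out, Cpt2 ran from 0.02 to 1.8, Ehhadh from -0.58 to 0.37, Bdh1 from -1.36 to 0 and Fabp1 from 0 to 3.13. The causes were not tested.

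No paired analysis was possible because no label gives the samples replicate numbers that groups share. A slide block could not be fitted, since each slide held 1 array. Spots near background give only bounds, so differences among the lines in Ehhadh and Bdh1 were not detectable at this signal.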
